A study of Arabidopsis thaliana with 36 samples.

Results

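The map described here is the distribution of RpoB over the plastid genome of wild-type Arabidopsis thaliana. RpoB is a core (beta) subunit of PEP, the RNA polymerase whose core is encoded by plastid genes. Members were chosen by their labels: the RpoB ChIP libraries of the Col0 line and their inputs, 12 of the 36 libraries of the series. They formed 4 groups of 3 replicates, namely Col0 RpoB ChIP of the ptac3 set, Col0 RpoB ChIP of the ptac14 set, and the input group of each set. The set names come from the mutant, ptac3 or ptac14, that stands in the library titles. That Col0 libraries were processed alongside that mutant is inferred and not stated in the labels. No mutant library and no pTAC3 library enters any value below.

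All 12 libraries came from seedlings aged 5 days with no treatment, grown in continuous light of 100 µmol per m2 and s on 0.5X MS plates after 48 h of dark stratification. Per the labels' protocols, 50 seedlings were pooled for a sample and crosslinked with 4% formaldehyde for 4 h, and chloroplasts were then enriched. The labelled material, chloroplasts, could not be checked against markers, since the table covers the plastid genome alone. The labels do not say that replicates came from separate cultures, so the p-values measure the spread between these libraries.

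PEP is a bacterial-type polymerase, and its core genes include rpoB itself. It is recruited to promoters by sigma factors imported from the cytosol, and in green tissue it transcribes photosynthesis genes and most tRNA and rRNA genes. A nuclear-encoded phage-type polymerase transcribes several housekeeping genes, the rpoB operon among them. The plastid genome consists of a large and a small single-copy region that are separated by both copies of an inverted repeat, which carries the rRNA operon.

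Coverage of each library was divided by that library's mean over the genome, and this ratio is called the level. Enrichment is the log2 ratio of ChIP to input levels, after addition of a pseudocount of 0.05. Because every library is set to the same mean, enrichment is relative: a gene below 0 holds less of the ChIP coverage than of the input coverage, which does not show that RpoB was absent from it. Scaling each library to its median bin in place of its mean shifted the median gene to 0.30, against -0.84 with the mean. Directions are given with the mean scaling. Regions that turned with the median scaling are listed in the closing part, as are such genes among those named by a rule set beforehand.

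Mean coverage per position ran from 113 to 1538 in the ChIP libraries and from 442 to 730 in the inputs. Counting error at the mean was between 2.55% and 9.41%. ChIP libraries correlated over bins at r between 0.968 and 0.981 within a set and between 0.955 and 0.988 across sets, as a description over bins that share reads. They differed in contrast. The SD of enrichment over bins was 0.89 in replicate 2 of the ptac3 set and 1.60 in replicate 3 of the ptac14 set, with the other 4 libraries between. The interaction of set with ChIP was called in 0 of 3085 bins (limma, 711 at an unadjusted p under 0.05) and in 0 of 128 genes (30 unadjusted). It was called in 726 bins and 25 genes without ChIP replicate 1 of the ptac3 set, and in 1033 bins and 37 genes without ChIP replicate 1 of the ptac14 set.

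The first question was where along the genome RpoB lay. Of 3085 bins of 50 bp, 673 were above input (21.8%) and 2254 below (73.1%; limma, Benjamini-Hochberg adjusted p under 0.05). With the second copy of the repeat left out, the bins above input joined into 32 regions of 100 to 8000 bp with a median of 350 bp, which covered 24850 bp. Of these regions 24 overlapped a tRNA gene, and 1 of those 24 held the rRNA operon. Another 5 held protein-coding genes alone and 3 held no annotated gene. Regions at psbA and matK count among the 24, since they overlap the long trnK gene. The gene start nearest to the highest bin was that of a tRNA gene in 19 regions, a protein-coding gene in 12 and an rRNA gene in 1. How often stretches of such lengths overlap a tRNA gene was not computed. The summit, the highest bin of a region, lay within 250 bp of an annotated gene start in 27 of the 32 regions and within 100 bp in 22. For comparison, 37.9% of the 2561 bins of the same stretch had their centre within 250 bp of a gene start and 17% within 100 bp. Of the summits 22 lay before the nearest start, in the direction of that gene, and 10 after it. The share of all bins that lie before their nearest start was not computed, so these counts show no preference for a side.

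The longest region, 8000 bp from position 100651 to 108650 of the coverage table, was the rRNA operon with trnV before it and trnR behind it. Its summit, from 100901 to 100950, was the highest of the map, with a mean enrichment of 2.93 and a range of 2.45 to 3.42 over the 6 ChIP libraries. It was centred 86.5 bp before rrn16S, the gene of the 16S rRNA, between that gene and trnV. The highest summit of the single-copy regions, from 47601 to 47650, lay between trnL (ArthCt101) and trnF, 549.5 bp before the start of trnF. Its enrichment was 2.73, with a range of 2.39 to 3.20. These genes for leucine and phenylalanine tRNAs sat in 1 region of 2100 bp.

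The next summit in height was 2.53 at trnE (30501 to 30550), the gene of the glutamate tRNA from which chlorophyll synthesis also starts. It lay 12.5 bp inside the gene and ranged from 2.04 to 2.90. Summits of 2.248 and 2.24 followed at trnV (ArthCt103; 51851 to 51900) and at trnL (Arthct122; 114251 to 114300). Their ranges, 2.05 to 2.48 and 1.85 to 2.60, overlapped with each other and with that of trnE. The trnL region was 1 of only 2 regions above input in the small single-copy region.

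Among regions named for a protein-coding gene the highest summit was at psbA (1451 to 1500), the gene of the photosystem II protein D1, with 1.92 (1.62 to 2.197) at 31.5 bp before the gene. The region of 1550 bp covered psbA and reached into the end of the trnK gene. At rbcL, the gene of the large subunit of Rubisco, the summit was 1.75 (1.36 to 2.36), centred 182.5 bp before the gene (54751 to 54800). Both had 6 of 6 libraries above 0 at the summit.

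Smaller regions stood before other photosynthesis genes and held no gene. That before psbE (64351 to 64550), the gene of a cytochrome b559 subunit, had a summit of 0.86 (0.53 to 1.08). That before psaA (41951 to 42100), the gene of a photosystem I core protein, had 0.77 (0.61 to 0.98). That before psbB (72151 to 72250), the gene of the photosystem II antenna protein CP47, had 0.38 (0.19 to 0.65). Their summits were centred 153.5, 168.5 and 145.5 bp before the gene in this order. A region of 200 bp from 121951 to 122150 lay across the end of ndhH and the start of ndhA, which encode subunits of the NADH dehydrogenase-like (NDH) complex. Its summit was 1.10 (0.85 to 1.46), 66.5 bp before ndhA and inside the ndh gene cluster. It was the only other region above input in the small single-copy region.

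Depleted stretches were long. The longest unbroken run of bins below input, 13050 bp from 13951 to 27000, held part or all of atpI, rps2, rpoC2, rpoC1 and rpoB and had a mean enrichment of -1.57. A run of 11800 bp from 74451 to 86250 ran from psbH over petB, petD and the ribosomal protein genes to rpl23, with a mean of -1.30. Another, of 7600 bp, lay over ycf2 (86601 to 94200) with a mean of -1.60.

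Position relative to tRNA and rRNA genes ordered the bins outside the rRNA operon. Here and in the comparison of regions the operon was counted from the start of rrn16S, with 7058 bp per copy. The summit before rrn16S is therefore among the bins outside it. Bins of both repeat copies were counted, so tRNA genes of the repeat and their flanks enter once per copy. Of 165 bins that overlapped such a gene 145 were above input (87.9%), of 276 bins within 250 bp of one 164 (59.4%), and of 202 bins between 250 and 500 bp 26 (12.9%). Shares were 4.55% up to 1000 bp, 0.821% up to 2000 bp and 2.64% beyond 2000 bp. Median enrichment was 0.87 in overlapping bins, 0.47 within 250 bp and -0.79 between 250 and 500 bp, and it ended at -1.39 beyond 2000 bp. Of the bins inside protein-coding genes, 9 of 32 within 250 bp of a tRNA or rRNA gene were above input, 0 of 394 between 1000 and 2000 bp, and 24 of 1126 beyond 2000 bp. ChIP fragments extend over neighbouring sequence, so RpoB on a tRNA gene and on its immediate neighbour cannot be told apart.

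**Figure D1:**
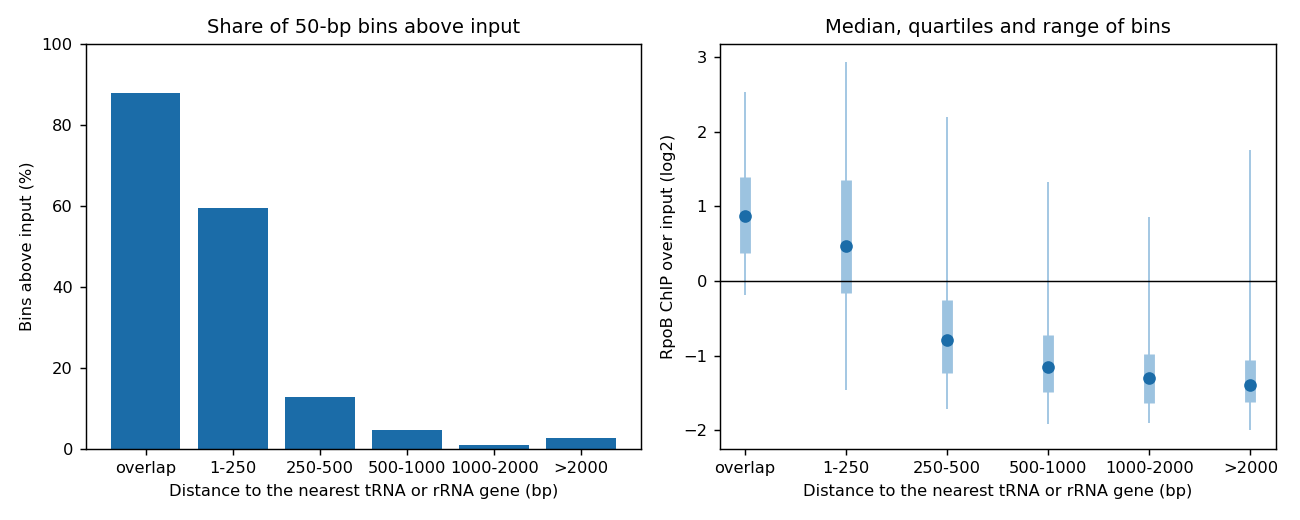
Share of 50-bp bins above input (left, percent) and RpoB ChIP over input per bin (right, log2; point: median, thick bar: quartiles, thin line: range) by distance to the nearest tRNA or rRNA gene, outside the rRNA operon. The share is 87.9% in bins that overlap such a gene, 59.4% within 250 bp and 12.9% between 250 and 500 bp. The operon is counted from the start of rrn16S, and bins of both repeat copies are included.

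Over gene bodies, 48 of 128 genes were above input (37.5%) and 77 below (60.2%; limma over all genes). With 1 copy of the repeat counted, these were 38 above, 72 below and 3 not called of 113. All 30 tRNA genes and all 4 rRNA genes were above input, and 4 of 79 protein-coding genes were, with 72 below. The 30 tRNA genes stood above input also with each library left out and with the median scaling, and 29 of 30 in either set alone. Median enrichment was 1.35 over tRNA genes, 1.78 over rRNA genes, -1.08 over protein-coding genes and -0.87 over all 113.

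**Figure D2:**
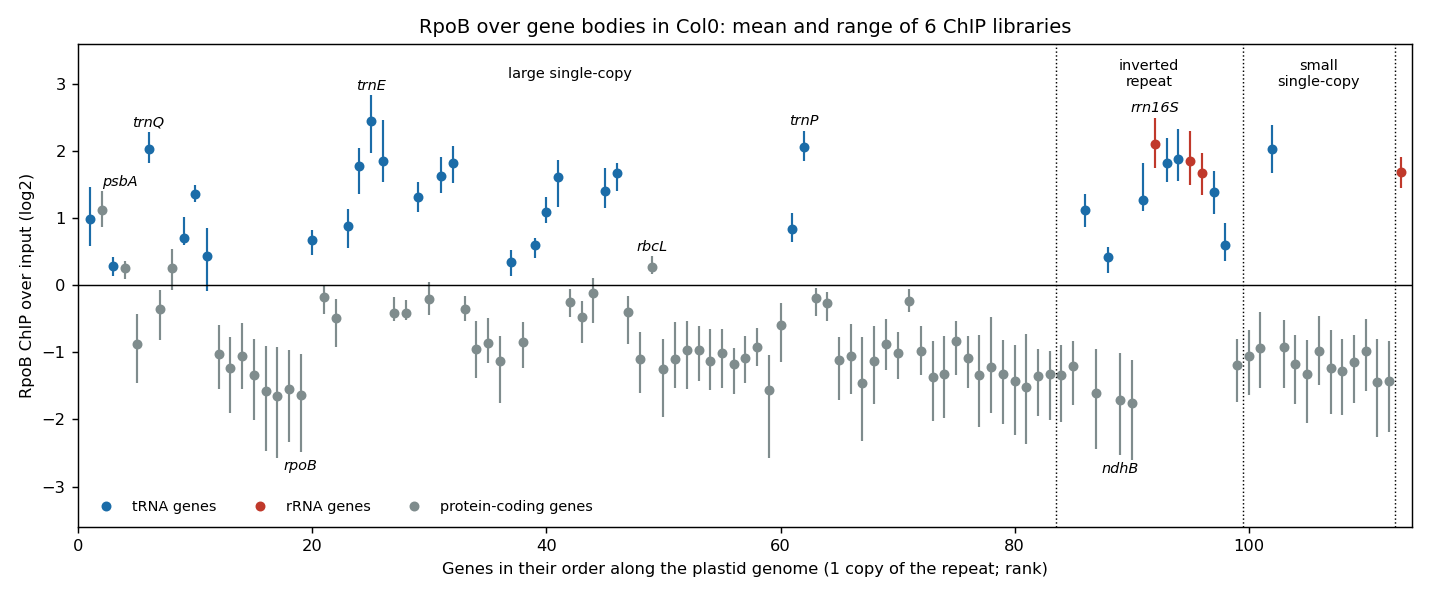
RpoB ChIP over input (log2) over the gene bodies of 113 genes in their order along the plastid genome; points are means and lines the range of the 6 ChIP libraries, and dotted lines part the regions. Every tRNA and rRNA gene has a mean above 0, from trnK at 0.29 to trnE at 2.45, while 75 of 79 protein-coding genes lie below; the last point is ArthCr091, counted from the second copy of the repeat.

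trnE was highest. Its level was 3.68, 5.29 and 6.67 in ChIP libraries (lowest, median, highest), against 0.846, 0.881 and 0.950 in inputs. The groups did not overlap, and trnE ranked first of 113 genes in 6 of 6 ChIP libraries. Its enrichment was 2.45 (SE 0.11, limma adjusted p = 4.99e-11).

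rrn16S came next, with levels of 3.45, 4.67 and 6.19 in ChIP libraries against 0.878, 1.02 and 1.12 in inputs. trnP, the gene of the proline tRNA, had 3.49, 3.96 and 4.67 in ChIP libraries against 0.873, 0.905 and 0.986 in inputs. Both genes had all ChIP libraries above all inputs, with enrichments of 2.10 (SE 0.12) and 2.06 (SE 0.08).

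Below trnE the order was not fixed. trnE exceeded rrn16S by 0.34 on average and in 6 of 6 libraries, whereas rrn16S exceeded trnP in 2 of 6. trnQ and trnL (Arthct122), genes of glutamine and leucine tRNAs, had 2.03 each. trnA (ArthCt108) with 1.89, trnT with 1.86, rrn23S with 1.86, trnI (ArthCt107) with 1.83 and trnfM, the gene of the initiator tRNA, with 1.82 completed the first 10. trnT ranked from 2 to 17 over libraries and trnfM from 8 to 12. Ranks 11 to 15 were held by trnY at 1.78, the rRNA gene ArthCr091 at 1.70, trnM at 1.67, rrn4.5S at 1.67 and trnG (ArthCt116) at 1.63. Of 112 neighbouring pairs in the order, 2 kept it in all 6 libraries. The other of them was psbI and ndhC, where the order passes from genes above input to genes not called.

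The lowest tRNA genes were trnK at 0.29 (SE 0.08, limma adjusted p = 0.00204), trnS (ArthCt125) at 0.35 and trnL (ArthCt126) at 0.43. The gene of trnK encloses matK in its intron, and its body is far longer than a tRNA. Its start window, described below, had 1.04. For trnR (ArthCt093), at 0.44, ChIP and input levels overlapped, with 0.671, 1.11 and 1.31 in ChIP libraries against 0.629, 0.735 and 0.798 in inputs. trnH had 0.99, but it lies at the end of the linear table, where levels were 0.215 to 0.451 in ChIP libraries and 0.0955 to 0.170 in inputs. These genes and trnR (ArthCt093) were named after their values were seen.

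4 protein-coding genes were above input. psbA had levels of 2.02, 2.43 and 2.90 in ChIP libraries against 1.01, 1.03 and 1.10 in inputs, and its enrichment was 1.13 (SE 0.09, limma adjusted p = 9.83e-09). It ranked 22 of 113, among the tRNA genes. rbcL had 1.27, 1.34 and 1.48 in ChIP libraries against 1.06, 1.09 and 1.14 in inputs, without overlap, and an enrichment of 0.28 (SE 0.07, limma adjusted p = 0.00226). matK, which lies inside the trnK gene and encodes a maturase of tRNA introns, had 0.26. psbI, the gene of a small photosystem II subunit that lies 92 bp from trnS (ArthCt091), had 0.25. Its ChIP levels of 0.806 to 1.25 overlapped input levels of 0.812 to 0.886, and without ChIP replicate 2 of the ptac14 set its adjusted p was 0.0559.

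By function, no group with over 1 protein-coding gene had a median above 0. Photosystem II genes had the highest median of these groups, at -0.49, with 2 of 15 above input and 13 below. Medians were -0.95 for the 5 photosystem I genes, -1.23 for 6 cytochrome b6f genes, -1.08 for 6 ATP synthase genes and -1.05 for 11 NDH genes. None of these 28 genes was above input, 25 were below and 3 were not called: ndhC, petN and psaJ. All 9 genes of the large and all 12 of the small ribosomal subunit were below, with medians of -1.33 and -1.27. The 4 polymerase genes had the lowest median, -1.59.

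The genes with the lowest values were rps7 (ArthCp069) at -1.75, ndhB (ArthCp068) at -1.70, rpoC2 at -1.65, rpoB at -1.64, ycf2 (ArthCp066) at -1.60, rps2 at -1.58, petL at -1.56, rpoC1 at -1.55, rps3 at -1.52 and rps12 at -1.45. rps7 encodes a ribosomal protein and had levels of 0.153, 0.319 and 0.516 in ChIP libraries against 1.13, 1.18 and 1.21 in inputs. rpoB, the gene of the precipitated protein, had 0.147, 0.304 and 0.489 in ChIP libraries against 1.02, 1.04 and 1.07 in inputs. In both genes every ChIP library lay below every input. Within ChIP libraries the lowest values came from replicate 3 of the ptac14 set, which also had the highest value of trnE. Housekeeping genes used as examples of the nuclear-encoded polymerase were likewise below: accD, for a subunit of acetyl-CoA carboxylase, at -1.25, clpP, for a protease subunit, at -1.13, and ycf1 at -1.19 and -1.42 in its short and long copies. The photosynthesis genes set beside them were also below input, with less negative means: atpB at -1.10, psbB at -0.88, psaA at -0.86 and psbD at -0.41. These genes do not stand for all photosynthesis genes. Medians were -0.98 over the 44 photosynthesis and NDH genes (-1.70 to 1.13) and -1.22 over the 35 other protein-coding genes (-1.75 to 0.26). The library ranges of atpB (-1.60 to -0.70) and clpP (-1.77 to -0.61) overlapped, and none of these differences was tested.

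The second question was where within genes the signal lay. The start window ran from 250 bp before to 50 bp after the annotated start of each gene. Of 128 windows 49 were above input (38.3%) and 69 below (53.9%). The window exceeded the gene body in 43 genes (33.6%) and the body exceeded the window in 41 (32%; limma over all genes), so that counts in both directions were close.

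Around tRNA genes the mean signal formed a peak at the gene start. Averaged over 30 tRNA genes, enrichment was highest in the 50 bp before the start, at 1.44 (1.25 to 1.64 over libraries). It was 0.36 in the step that begins 300 bp before the start, -0.01 in the step that begins 500 bp after it and -0.20 in the last step, 950 bp after it. Steps from 50 bp after the start on are means over 29 tRNA genes. In 26 of 30 tRNA genes the window was above input. The body exceeded the window in 14 of them and the window the body in 9. The body was higher at trnE, with a window of 1.29 against a body of 2.45, and at trnV (Arthct121), with -0.24 against 1.27. The window was higher at trnL (ArthCt101), with 2.0 against 1.10, and at trnK, with 1.04 against 0.29.

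Protein-coding genes showed no common peak. The mean profile of 44 photosynthesis and NDH genes stayed between -0.78 and -0.55 from 500 bp before to 999 bp after the start. That of the other 35 protein-coding genes stayed between -1.16 and -0.70. The window exceeded the body in 24 of 79 protein-coding genes and the body the window in 23.

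**Figure D3:**
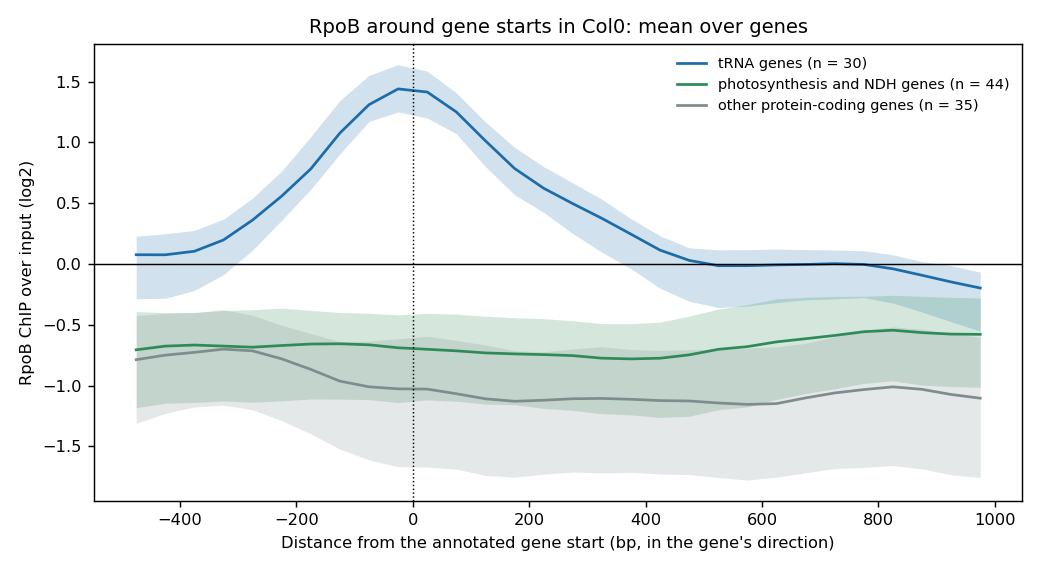
Mean RpoB ChIP over input (log2) in steps of 50 bp around annotated gene starts, for tRNA genes, photosynthesis and NDH genes, and other protein-coding genes; bands give the range of the 6 ChIP libraries. The tRNA profile reaches 1.44 just before the start and -0.01 at 500 bp after it, while both protein-coding profiles stay below 0. It covers 30 tRNA genes, and 29 from 50 bp after the start on.

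A minority of protein-coding genes had a window above input. These were 9 of 79, and in 6 of them the body was below or not called: ycf2, ccsA, psaJ, psbE, ndhA and psaA. At ycf2 (0.87 against a body of -1.60) and ccsA (1.3 against -0.92) the window overlaps a tRNA gene, trnI (ArthCt113) and trnL (Arthct122). The windows of the other 4 overlap none, and at psaJ, for a photosystem I subunit, trnP starts 366 bp away.

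At psbE the window had 0.35 (0.18 to 0.52 over libraries) and the body -0.92, a difference of 1.27 (SE 0.08). At ndhA the window had 0.42 (0.22 to 0.62) and the body -1.14, a difference of 1.56 (SE 0.10). At psaA the window had 0.18 (-0.01 to 0.30) and the body -0.86. At rbcL the window had 1.26 (1.04 to 1.73) against 0.28 over the body, and at psbA 1.40 (1.25 to 1.57) against 1.13. At psbB the window exceeded the body by 0.81 (SE 0.08) but was not above input, at -0.07. Windows of rpl20 and petG, by contrast, lay 0.64 and 0.68 below their bodies.

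Division of each gene at its midpoint gave a similar split. Of 70 genes of 300 bp or more, the 5′ segment was higher in 22 (31.4%) and the 3′ segment in 16 (22.9%; limma), and the median difference was -0.01. psbA had the largest 5′ excess, 0.62 (SE 0.04), with 0.49 to 0.71 over 6 libraries. trnG (ArthCt092) followed at 0.58, ccsA, for a cytochrome c assembly factor, at 0.49, ndhA at 0.47, rrn16S at 0.40 and trnV (ArthCt103) at 0.39. The largest 3′ excesses had differences of -0.85 at rps14, -0.68 at ndhH, -0.67 at atpE and -0.59 at rpl20. Each of these 10 genes had the same sign in 6 of 6 libraries. The 3′ ends of rps14 and atpE lie 161 and 137 bp from trnfM and trnM, and the 3′ end of ndhH lies under the region before ndhA.

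Operons are genes that are transcribed together, and their members were entered from textbook knowledge. Within each operon as entered, the first gene was set against the last. Of 17 operons the first gene was higher in 4 (23.5%) and the last in 8 (47.1%; exact permutation of ChIP and input labels within sets, smallest possible p 0.005, adjusted over 17). The first gene was higher in the rRNA operon, in trnE-trnY-trnD, in psbB-psbT-psbH-petB-petD and in psaJ-rpl33-rps18.

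**Figure D4:**
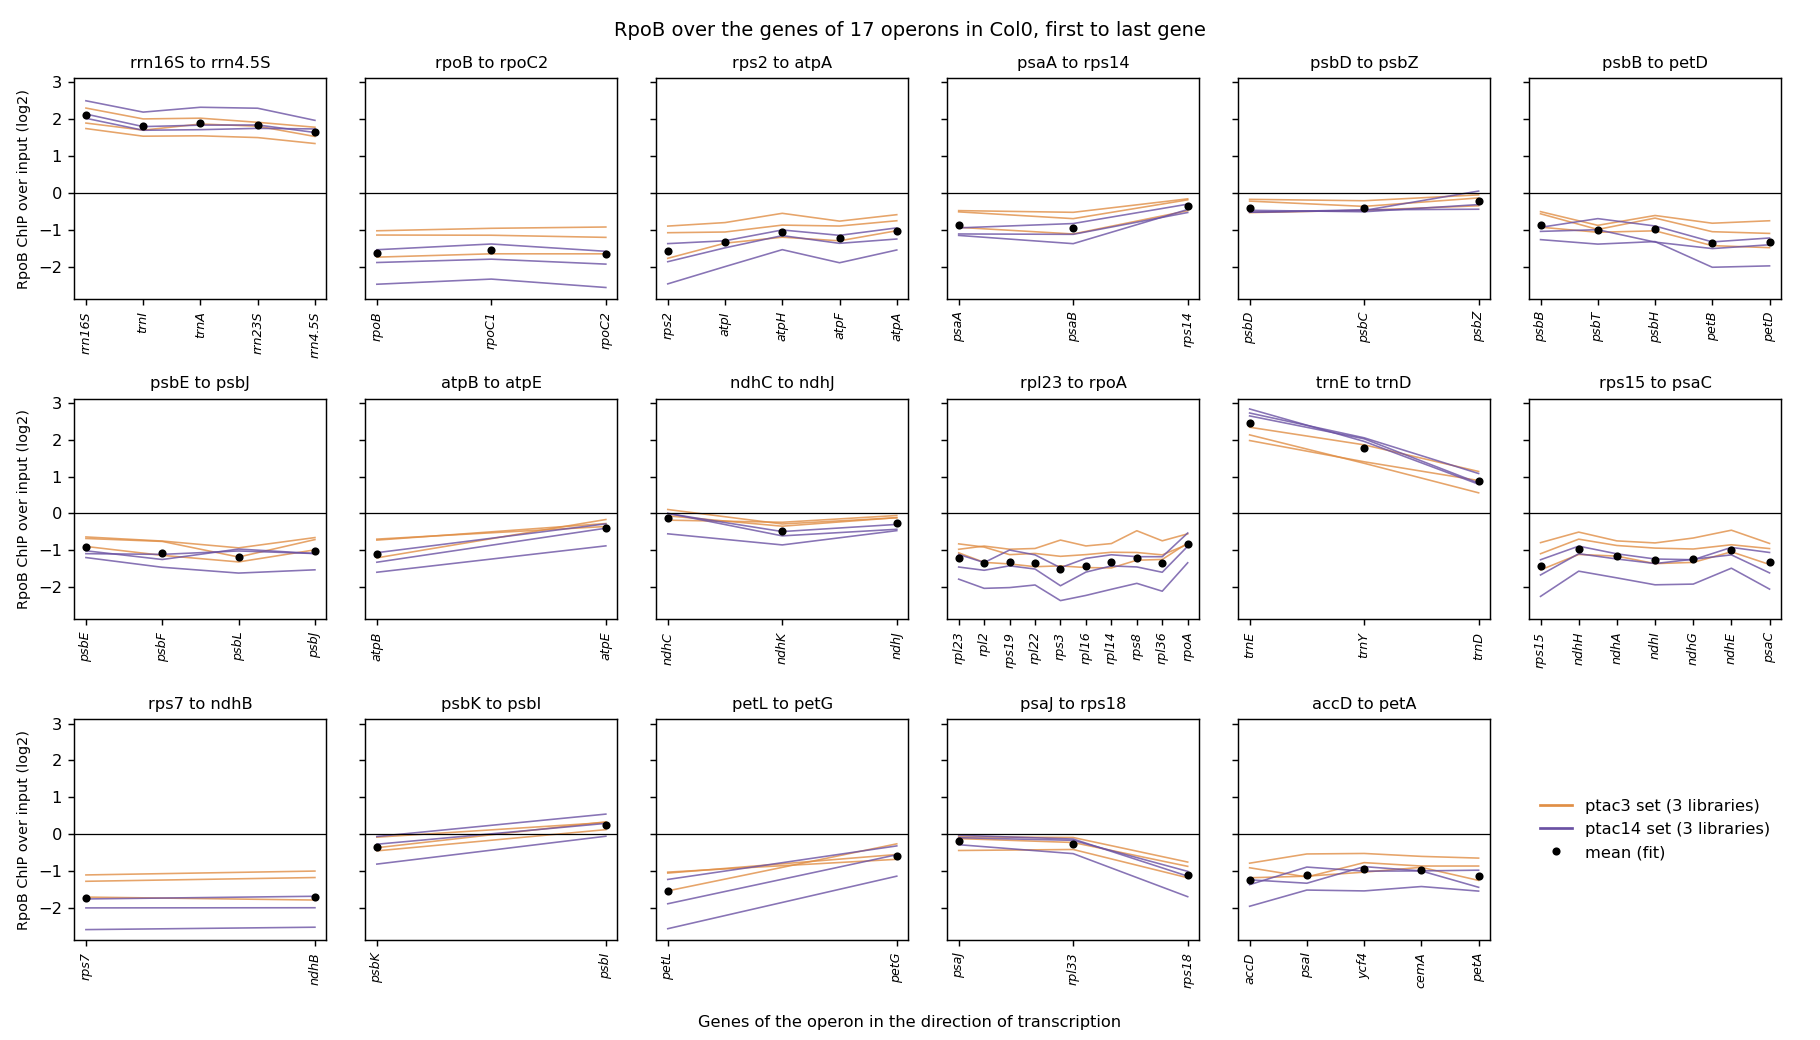
RpoB ChIP over input (log2) over the genes of 17 operons in the direction of transcription; each line is 1 of 6 ChIP libraries, coloured by set, points are means, and 1 gene of the rpl23 operon is not shown. The trnE operon descends in every library, while the psbK, petL, atpB and psaA operons end higher than they begin.

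The trnE operon descended most: trnE had 2.45, trnY, for the tyrosine tRNA, 1.78, and trnD, for the aspartate tRNA, 0.88. trnE was highest and trnD lowest in 6 of 6 libraries, and the first minus last difference was 1.56 ± 0.36 (SD, n = 6; exact permutation p = 0.005, adjusted 0.0085). In the rRNA operon as entered the values were 2.10 at rrn16S, 1.83 at trnI, 1.89 at trnA, 1.86 at rrn23S and 1.67 at rrn4.5S. This slope of 0.44 ± 0.10 (SD, n = 6; exact permutation p = 0.005) had the same sign in all libraries. The rRNA gene ArthCr091, at 1.70, lies behind rrn4.5S but was not entered as a member, so the slope does not reach it.

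Among protein-coding operons psbB had -0.88, and petB and petD, for cytochrome b6f subunits, had -1.36 and -1.33. The first gene exceeded the last by 0.45 ± 0.18 (SD, n = 6; exact permutation p = 0.005). psaJ, at -0.18, and rpl33, at -0.27, exceeded rps18, at -1.12. The difference between psaJ and rps18 was 0.94 ± 0.28 (SD, n = 6; exact permutation p = 0.005).

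Operons that ended higher included atpB-atpE, with -1.10 at atpB and -0.39 at atpE, both for ATP synthase subunits, and psaA-psaB-rps14, with -0.86, -0.95 and -0.35. In petL-petG the values were -1.56 and -0.59, in psbK-psbI -0.35 and 0.25, and from rps2 to atpA they were -1.58 and -1.02. All 5 had p = 0.005 (exact permutation, n = 6 ChIP against 6 input libraries). The rpl23 operon of 11 genes ended at rpoA with -0.83, against -1.20 at rpl23. psbD-psbC-psbZ ended only 0.20 higher, and without input replicate 2 or 3 of the ptac14 set its adjusted p was 0.0618 or 0.0541. The difference in rps15 to psaC, of -0.12, had an adjusted p of 0.0496, and this call was lost in 9 of 12 fits with a library left out.

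The direction of these slopes can be set beside the nearest tRNA gene. Of the 15 operons without rRNA or tRNA genes as members, 10 had a tRNA gene nearer to the end of the last gene than to the start of the first. In 7 of those 10 the last gene was higher, and in 3 neither was called. Of the 5 with the tRNA gene nearer to the first gene, 2 had the first gene higher, 1 the last and 2 neither. This count is a description, and whether neighbouring tRNA genes account for the slopes was not tested.

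In 5 operons neither end was called higher. rpoB-rpoC1-rpoC2, for the core subunits of PEP, had -1.64, -1.55 and -1.65, and the difference of 0.01 between first and last was within the spread of 0.08 (SD, n = 6; exact permutation p = 0.79). rps7-ndhB had -1.75 and -1.70 (exact permutation p = 0.25, n = 6). The accD to petA group was between -1.25 and -0.97 (exact permutation p = 0.2, n = 6). psbE-psbF-psbL-psbJ had -0.92, -1.08, -1.17 and -1.01 (exact permutation p = 0.075, n = 6), below the region before psbE described above. ndhC-ndhK-ndhJ, with -0.12, -0.47 and -0.25, lay between trnV (ArthCt103) and trnF, 836 and 430 bp away (exact permutation p = 0.2, n = 6).

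A further question was how the regions of the genome compared. The rRNA operon, both copies together, had levels of 3.05 to 5.44 in ChIP libraries against 0.926 to 1.08 in inputs. It took 27.8%, 36% and 49.7% of the plastid coverage in ChIP libraries (lowest, median, highest), against 8.46%, 9.36% and 9.90% in inputs. Its enrichment was 1.97 ± 0.26 (SD, n = 6; exact permutation p = 0.005), and all 284 bins in it were above input.

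The rest of the inverted repeat lay on the other side. Its levels were 0.470 to 0.698 in ChIP libraries against 1.06 to 1.09 in inputs, with an enrichment of -0.87 ± 0.22 (SD, n = 6; exact permutation p = 0.005). Of its bins 8.74% were above input. They included bins before rrn16S, where the operon as counted begins, with the highest bin of the map at 2.93. The inverted repeat as a whole had an enrichment of 0.52.

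In the large single-copy region levels were 0.642 to 0.869 in ChIP libraries against 0.953 to 0.969 in inputs, an enrichment of -0.30 ± 0.15 (SD, n = 6; exact permutation p = 0.005). The share of bins above input was 18.5%. In the small single-copy region levels were 0.315 to 0.648 in ChIP libraries against 1.00 to 1.05 in inputs. Its enrichment was -1.09 ± 0.35 (SD, n = 6; exact permutation p = 0.005), and 3.10% of its bins were above input. That region holds 1 tRNA gene, and the large single-copy region holds 22.

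Between regions, the small single-copy region was lower than the large one by 0.79 in the mean and by 0.50 to 1.11 over the 6 libraries. The inverted repeat without its rRNA operon was 0.57 below the large single-copy region and 0.22 above the small one. All 3 contrasts had the same sign in 6 of 6 libraries (exact permutation p = 0.005 each), and differences between regions do not depend on the scaling of the libraries. Values of both copies of the repeat were alike: over 15 gene pairs they differed by at most 0.08. How the submitters assigned reads that match both copies is not given in the sources used here, so this likeness is no separate measurement of each copy.

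**Figure D5:**
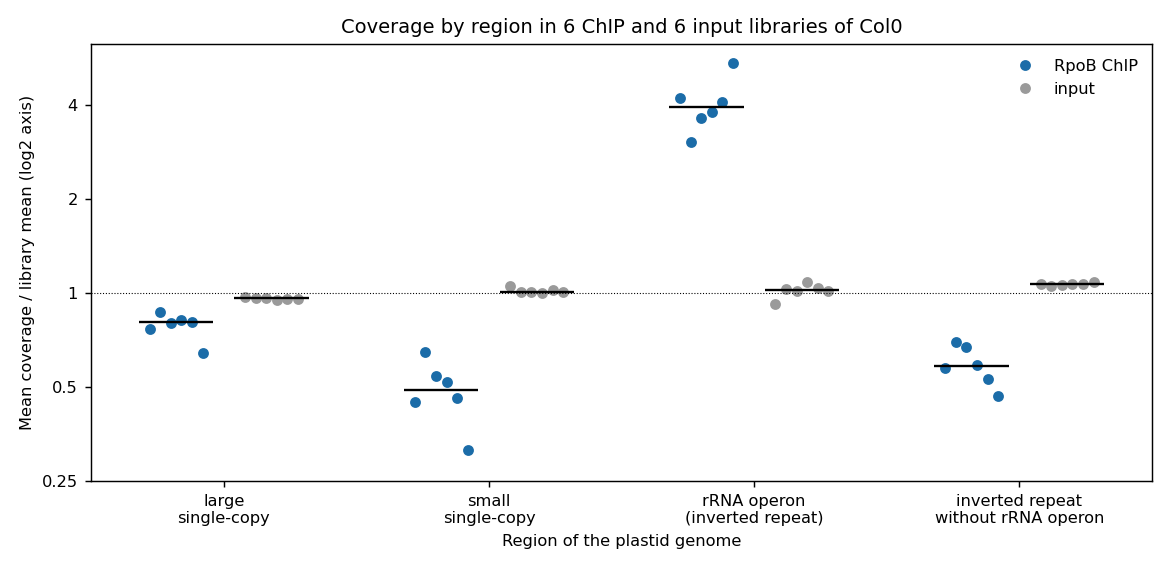
Mean coverage of each region divided by the library mean (log2 axis) in 6 RpoB ChIP and 6 input libraries; each point is a library and the line is the median. Inputs stay near 1 in every region, while ChIP libraries lie at 3.05 to 5.44 in the rRNA operon and at 0.315 to 0.648 in the small single-copy region.

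The last question was the strand of the bound genes. Of 43 plus-strand genes 19 were above input and 22 below, and of 70 minus-strand genes 19 were above and 50 below. These totals depend on the copy of the repeat counted, since its genes have the opposite strand in the other copy. Here ArthCr091 was counted from the second copy. In the inverted repeat 7 plus-strand and 4 minus-strand genes were above input, and in the large single-copy region 11 and 15. tRNA genes were above input on both strands, 14 on plus and 16 on minus. Protein-coding genes above input were 2 of 26 on plus (rbcL and psbI) and 2 of 53 on minus (psbA and matK). The mean of plus-strand protein-coding genes exceeded that of minus-strand ones by 0.25 ± 0.09 (SD, n = 6; exact permutation p = 0.005), in 6 of 6 libraries. For this and the tRNA difference below, the permutation moves ChIP and input labels with the genes fixed. Whether strand matters beyond the spread between genes was therefore not tested. The protein-coding difference was 0.27 with genes of the single-copy regions alone and 0.16 with the second repeat copy in place of the first. The strands differ in gene content: all 11 NDH, all 6 ATP synthase and all 4 polymerase genes are on the minus strand, and all 6 cytochrome b6f genes on the plus strand.

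For tRNA genes the strand difference depended on which copy of the repeat was counted. It was 0.16 ± 0.03 (SD, n = 6; exact permutation p = 0.005) with the first copy. It was -0.22 with the second copy, in which every gene has the opposite strand, and -0.05 with single-copy genes alone (exact permutation adjusted p = 0.05, n = 6); both of these settings were chosen after seeing the data. In the large single-copy region the median was 1.37 over 9 plus-strand and 1.32 over 13 minus-strand tRNA genes. In the first repeat copy it was 1.61 over 4 plus-strand and 0.60 over 3 minus-strand tRNA genes, and trnI and trnA of the rRNA operon are among the 4.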

How the data were processed

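The authors deposited 1 table of whole-number coverage (a signal, entered under the unit other) per position of the plastid genome, with 154477 positions and a column per library. Its 24 columns of other libraries were not used. Per the submitters' processing notes the tools were Trim Galore 0.4.1, Bowtie2 2.2.8.9 and bedtools 2.25.0, and the build was TAIR10. Read filters, duplicate removal and the handling of repeat reads are not given in the sources used here.

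Gene positions came from a RefSeq table of TAIR10.1, so gene coordinates are not printed. In all 12 libraries coverage of the repeat copies was aligned without a shift (offset 0 bp) at the mirrored gene positions. The table has no strand, and strands were entered from textbook knowledge, as were the members of the operons. Mirrored gene pairs were required to lie on opposite strands, and operon genes on 1 strand in map order. The processing could finish only if these conditions held. They show that the entries are consistent and are no separate check of each strand. Of 129 entries 128 remained after a duplicate was removed.

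Coverage was divided by the library mean, averaged in bins of 50 bp and log2 transformed with a pseudocount of 0.05. Bins whose mean input fell short of 10% of the median bin (5 bins) were removed. limma 3.58.1 (R 4.3.3) fitted set plus ChIP against input, two-sided, with Benjamini-Hochberg adjustment at 0.05. Operons, regions and strands were tested by exact permutation within sets (400 arrangements, two-sided). Values per library are a ChIP library minus the mean input of its set, and ± is the SD over the 6 of these. The fit was checked on simulated data. Counting errors cover counting only, since reads carry no molecular identifiers.

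Same-numbered ChIP and input libraries did not pair: their deviations correlated at -0.44 to 0.41. No replicate pair agreed within counting error (lowest chi-square per degree of freedom 1.62). Members, gene groups and operons were chosen with earlier results of these data known, and the order of the rps15 operon was corrected after the gene table was read. Named are the 15 highest and 10 lowest genes called without overlap of ChIP and input, the 10 largest differences between 5′ and 3′ segments, all operon genes, and a fixed list of 13 symbols; other genes were named after their values were seen. Alternatives were the pseudocount, scaling, bin size, filters, replicate block, single sets and libraries left out. The result of 1 gene is not reported here.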

Additional observations from a re-analysis of the deposited data

How the results depend on the processing

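Scaling to the median bin moved the map most. It gave 1257 bins above input and 1234 below, and 75 genes above and 29 below. All 30 tRNA and 4 rRNA genes stayed above input, with 31 of 79 protein-coding genes above and 25 below. The large single-copy region turned to 0.91, the small one to 0.12 and the inverted repeat without the rRNA operon to 0.34. Named genes that turned to above 0 were rps14 (0.80), ndhH (0.14), atpE (0.76), rpl20 (0.060), ccsA (0.19), psbD (0.75), psaA (0.28), atpB (0.016), psbB (0.26), atpH (0.066), atpA (0.10), psaB (0.18), psbC (0.74), psbZ (0.95), psbT (0.11), psbH (0.15), psbE (0.21), psbF (0.048), psbJ (0.11), ndhC (1.05), ndhK (0.68), ndhJ (0.91), rpoA (0.31), ndhE (0.15), psbK (0.80), petG (0.56), psaJ (0.97), rpl33 (0.89), rps18 (0.0035), psaI (0.0035), ycf4 (0.17) and cemA (0.16). Genes named after their values were seen, such as petN, are not covered by this list. Differences within genes, within operons and between strands kept the number of calls under this scaling.

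Bins of 25 bp gave 1330 above and 4506 below, and bins of 200 bp gave 175 and 560, by the number of bins tested. With 1 set, 3 against 3 libraries cannot go below p = 0.1 in the permutation tests. Operon counts were then 0 first higher and 0 last higher in either set. Region values were -0.25, -0.92, 0.47, 1.86 and -0.72 in the ptac3 set alone, and -0.34, -1.26, 0.56, 2.07 and -1.02 in the ptac14 set alone, for the large and small single-copy regions, the inverted repeat, its rRNA operon and the rest of it. Strand differences were 0.15 and 0.18 in the ptac3 set and 0.17 and 0.33 in the ptac14 set, for tRNA and protein-coding genes. The ptac3 set alone gave 12 genes with a higher 5′ segment and 7 with a higher 3′ segment, and the ptac14 set alone gave 26 genes whose body exceeded the start window.

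Strand settings chosen after seeing the data turned the tRNA difference to -0.048 with single-copy genes and to -0.22 with the second repeat copy. A start window from 100 bp before the gene turned window minus body to 0.17 at trnfM, 0.54 at trnG (ArthCt092), -0.15 at psbZ, -0.074 at psbK and -0.0036 at rrn23S. With libraries left out 1 at a time, the count of bins that differed between sets ran from 0 to 1033 and that of genes from 0 to 37. psbZ lost its call below input in 9 of 12 such fits.

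No fit with a replicate block (paired by number) changed a count by over 1.5 times: it gave 645 bins above and 2234 below input, and 48 genes above and 76 below. It ended the call below input at psbZ (limma adjusted p = 0.079), the segment call at ycf4 and the window calls at psbJ and ycf4. It added window calls at atpB and ndhK, and brought psbE to psbJ past the threshold (exact permutation adjusted p = 0.0409, first gene 0.09 higher).

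Depth limits single positions more than genes or regions. Base composition was not analysed here.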
